A study of Mus musculus with 8 samples.

Results

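Interferon-stimulated genes are the genes that cells switch on when an interferon binds its receptor. The list examined here holds 33 of them, chosen by name, and 30 had an array feature whose only annotated gene was that member. These 30 are among 18820 genes measured in the series. Where a gene had more than 1 feature, the feature brightest on average over all 8 arrays was read. Igtp and Parp9 lay only on features shared with Irgm2 and with Dtx3l, Ifi44 had none that names it, and these 3 members are not analysed here.

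Type I interferons (alpha and beta) signal through the receptor Ifnar1-Ifnar2 and type III interferons through Ifnlr1-Il10rb. Both activate a complex that contains Stat2 and Irf9 and binds a short DNA element, the interferon-stimulated response element (ISRE). Type II interferon (gamma) signals through Ifngr1-Ifngr2, and its target genes are known for another element, the gamma-activated site (GAS). The products of the target genes detect foreign RNA, block its translation, degrade it or act on intracellular pathogens, and many are expressed at a basal level without infection, also in tissue macrophages.

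RNA of mouse pancreas was profiled on 8 whole-transcript arrays, 4 of Sel1L knockout and 4 of wild type, all of the C57BL/6J background. Sel1L is a partner protein of the ubiquitin ligase Hrd1, which marks misfolded proteins of the endoplasmic reticulum for degradation, and the comparison asks how its loss alters gene expression. Per the labels' protocols, the knockout mice were Sel1L flox/flox with an actin-promoter driven, tamoxifen-activated estrogen receptor-Cre fusion (fl/fl;ERCre+), and the wild type mice were littermates with the same floxed alleles and no Cre (fl/fl;ERCre-). Exon 6 was floxed in both groups, and mice aged 8 to 20 weeks in both received tamoxifen at 5 mg/ml and 5 μl per g body weight daily for 3 days. The actin promoter is not limited to pancreas, and deletion of Sel1l and activity of Cre cannot be told apart because the controls lacked Cre. Samples carry the numbers 1 to 4 in both groups, and nothing says that each is a separate animal, so the p-values rest on a spread that may be technical.

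The targeted gene Sel1l was at 11.68, 11.66, 11.70 and 11.45 in the knockout arrays, against 12.37, 12.38, 12.38 and 12.39 in the wild type arrays (deposited log2 levels). The groups did not overlap, and the difference was -0.76 (SE 0.0788, limma adjusted p = 0.000196). The tissue label was borne out by its defining genes: the 12 acinar markers measured averaged 12.88 to 12.98 in knockout and 13.13 to 13.26 in wild type arrays. Of these acinar markers 8 were called lower in the knockout and 0 higher (list median -0.28). Over all genes 12.6% were called lower and 16.1% higher. Wild type replicate 2 stood apart in markers of other cell types. Its 21 macrophage markers averaged 5.42, where the knockout arrays averaged 6.56 to 7.43 and wild type replicates 1, 3 and 4 averaged 6.97 to 7.61. Its 12 stellate cell and fibroblast markers averaged 6.55, where the knockout arrays averaged 7.31 to 8.04 and wild type replicates 1, 3 and 4 averaged 7.65 to 8.08. The difference of each member without this array is given beside the full one.

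The promoters of these genes are shown first, because the ISRE is what many of them are known to share. A window of 250 bases before to 50 after the start was held for 24 of the 33 members (RefSeq, build GRCm38.p6; 28 windows, as some genes have several starts). The ISRE core was searched as GAAA, any 2 bases and GAAA again, on both strands. It occurred in 14 of the 28 member windows, and in 3.44% of all 32851 windows of that length. By gene, 14 of 24 members held it in at least 1 window, against 3.99% of 27025 genes. The GAS element TTCNNNGAA, which reads the same on both strands, occurred in 6 of the 28 windows and in 8.30% of all windows. A match is a description of the letters and no evidence of binding, and a window without one shows only that these letters are not in it. The 6 windows below cover 4 members that rose in the knockout and hold the core (Ifit3, Rsad2, Ifih1, Ddx60), 1 that holds it 3 times and did not pass the test (Isg15) and 1 that rose and lacks it (Xaf1). Each is written 5′ to 3′ along the gene's strand, with matches to the core in capitals.
Ifit3 (chr19:34583279-34583578, plus strand): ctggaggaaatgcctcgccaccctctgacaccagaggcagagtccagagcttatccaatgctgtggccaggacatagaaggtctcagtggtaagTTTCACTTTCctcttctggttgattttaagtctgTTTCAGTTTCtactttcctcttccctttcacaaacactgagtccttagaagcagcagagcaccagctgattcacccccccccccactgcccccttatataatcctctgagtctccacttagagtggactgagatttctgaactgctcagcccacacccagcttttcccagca
Rsad2 (chr12:26456403-26456702, minus strand): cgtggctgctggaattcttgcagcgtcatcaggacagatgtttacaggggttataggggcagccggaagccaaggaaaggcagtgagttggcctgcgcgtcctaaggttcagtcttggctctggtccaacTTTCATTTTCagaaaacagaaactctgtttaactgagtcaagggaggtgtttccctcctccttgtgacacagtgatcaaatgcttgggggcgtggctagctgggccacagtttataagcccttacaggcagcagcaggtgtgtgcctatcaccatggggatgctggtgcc
Ifih1 (chr2:62646206-62646505, minus strand): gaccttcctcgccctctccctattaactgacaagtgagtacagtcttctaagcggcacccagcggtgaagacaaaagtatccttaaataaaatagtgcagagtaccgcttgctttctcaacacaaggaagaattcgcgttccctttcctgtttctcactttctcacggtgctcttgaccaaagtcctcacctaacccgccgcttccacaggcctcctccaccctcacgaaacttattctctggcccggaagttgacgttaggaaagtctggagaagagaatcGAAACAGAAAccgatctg
Ddx60 (chr8:61927837-61928136, plus strand): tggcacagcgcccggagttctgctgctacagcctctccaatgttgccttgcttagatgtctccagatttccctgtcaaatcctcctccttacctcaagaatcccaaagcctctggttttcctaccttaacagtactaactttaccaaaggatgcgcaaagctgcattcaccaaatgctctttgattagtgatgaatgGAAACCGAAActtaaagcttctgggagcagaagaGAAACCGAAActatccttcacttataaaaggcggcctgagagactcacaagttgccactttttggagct
Isg15 (chr4:156200769-156201068, minus strand): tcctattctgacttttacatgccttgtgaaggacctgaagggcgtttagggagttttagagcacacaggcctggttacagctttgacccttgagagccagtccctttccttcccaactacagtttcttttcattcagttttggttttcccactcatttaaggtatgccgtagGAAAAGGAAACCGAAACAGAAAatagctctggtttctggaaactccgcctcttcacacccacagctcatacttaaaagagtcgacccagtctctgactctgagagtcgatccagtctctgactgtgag
Xaf1 (chr11:72301379-72301678, plus strand): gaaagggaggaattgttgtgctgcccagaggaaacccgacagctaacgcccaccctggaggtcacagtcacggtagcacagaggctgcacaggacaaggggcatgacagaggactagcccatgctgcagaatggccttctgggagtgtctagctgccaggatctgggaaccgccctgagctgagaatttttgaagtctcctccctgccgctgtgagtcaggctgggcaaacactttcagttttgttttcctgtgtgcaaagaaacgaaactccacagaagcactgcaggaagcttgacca
In Isg15 the 3 matches overlap and run together, with first bases at positions -78, -72 and -66 from the start. In Ifit3 the matches lie on the opposite strand, at positions -156 and -122. In Ifih1 the match begins at position 33, after the start. Of the 6 members called higher that had a window, 4 held the core, and of the 16 measured members with a window that were not called, 9 did.

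Of the 30 members, 7 were higher in the knockout and 0 were lower (limma, Benjamini-Hochberg adjusted p under 0.05 over all genes). They were Xaf1, Rtp4, Ifi35, Ifit3, Rsad2, Ifih1 and Ddx60, with differences of 0.32 to 0.91 on the log2 scale. In this comparison 28.7% of all genes were called, 16.1% higher and 12.6% lower. The 7 members make up 23.3% of those measured, which is not far from the share of all genes called higher. At an unadjusted p under 0.05, 13 members were higher and 0 lower. Of all 18820 genes, 4080 were higher and 3913 lower at that threshold. The difference was above 0 for 25 of 30 members, against 45.6% of all genes. The median difference of the members was 0.33, against -0.04 over all genes. Among the 9410 genes above the median level it was 0.13 over all of them and 0.38 for the 17 members there. In that set 5 of the 17 members were called higher, and 32% of the genes. For 6 members every knockout value lay above every wild type value, which was so for 17.6% of all genes, and for 0 every one lay below (14.6% of all genes). Without wild type replicate 2, 5 of the 7 were still called (14.6% of all genes were then called higher), and the median of the members was 0.23. The count was 3 without knockout replicate 2 (12.3% of all genes called higher), 4 without knockout replicate 3 (11.7%), 4 without knockout replicate 4 (12.8%) and 12 without wild type replicate 3 (15.2%). After quantile normalization 3 members were called higher, with 9.64% of all genes, and 1 lower, with 12.8% of all genes.

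**Figure D1:**
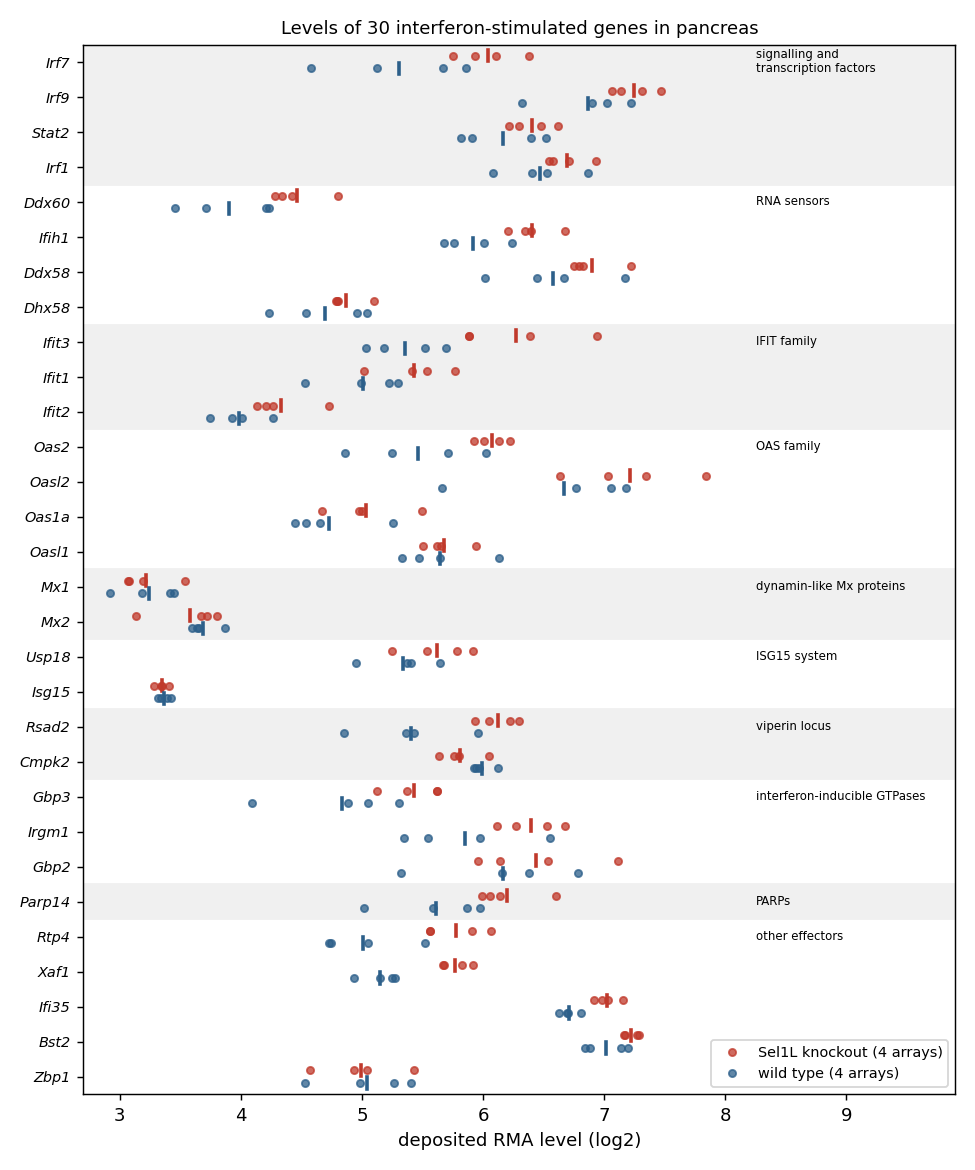
Deposited RMA level (log2, horizontal axis) of each of the 30 members, grouped by role. Each point is 1 array, with the 4 Sel1L knockout arrays in red above the 4 wild type arrays in blue, and vertical ticks mark group means. The red points lie wholly to the right of the blue ones for 6 members: Ddx60, Ifit3, Parp14, Rtp4, Xaf1 and Ifi35.

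Among the cytosolic RNA sensors, which start the interferon response when they meet viral RNA, 2 of 4 rose. Ifih1, which encodes MDA5, a sensor of long double-stranded RNA, was at 6.68, 6.40, 6.34 and 6.21 in the knockout arrays, against 6.01, 5.67, 6.24 and 5.76 in the wild type arrays. Its groups overlapped only where wild type replicate 3 reached just above the lowest knockout array. The difference was 0.49 (SE 0.143, adjusted p = 0.0302), and it missed the threshold without wild type replicate 2 (0.41, adjusted p = 0.0643) or 4 (0.0698), or without knockout replicate 1 (0.0733), 2 (0.0648) or 3 (0.0589). It also missed it after quantile normalization (0.113) and cyclic loess (0.0947). Ddx60, the gene of a helicase that assists these sensors, was at 4.80, 4.34, 4.43 and 4.28 in the knockout arrays, against 4.23, 3.45, 4.21 and 3.71 in the wild type arrays. Its groups did not overlap, but the gap between them was narrow. All 8 levels lay below the array medians over all features (4.94 to 5.05). As no detection call is given, whether the Ddx60 feature reads RNA was not tested. The difference of 0.56 (SE 0.188) lay just inside the threshold (adjusted p = 0.0499). The call was lost when any array but wild type replicate 1 or 3 was left out (adjusted p of 0.0667 to 0.118). The difference was 0.41 without wild type replicate 2. The call was also lost after quantile normalization (0.0533), centring of arrays on their medians (0.0611) and with every feature tested by itself (0.0766). Ddx58, the gene of the sensor RIG-I, differed by 0.32 (95% interval -0.17 to 0.81, adjusted p = 0.284), and by 0.14 without wild type replicate 2. Dhx58, the gene of LGP2, a regulator of both sensors, differed by 0.18 (interval -0.21 to 0.57, adjusted p = 0.452), and by 0.02 without that array.

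The IFIT proteins bind viral RNA that lacks the cap marks of the host and keep it from being translated. Their 3 genes are neighbours on chromosome 19. Ifit3, the member with the largest difference, was at 6.94, 6.39, 5.88 and 5.88 in the knockout arrays, against 5.18, 5.03, 5.70 and 5.52 in the wild type arrays. The groups did not overlap, and knockout replicate 1 was the highest of all. The difference was 0.91 (SE 0.241, adjusted p = 0.0199), a 1.89-fold rise, and 0.81 without wild type replicate 2 (adjusted p = 0.0434). It missed the threshold without wild type replicate 1 (0.0535) or knockout replicate 2 (0.0532). Ifit1 differed by 0.42 (interval -0.01 to 0.86, adjusted p = 0.129) and Ifit2 by 0.35 (interval 0.01 to 0.68, adjusted p = 0.11), and neither passed the test. They differed by 0.26 and 0.27 without wild type replicate 2. Members of this family resemble each other in sequence, so their probes may share signal.

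Rsad2 and Cmpk2 are neighbours on chromosome 12 and gave differences of opposite sign. Rsad2 encodes viperin, an enzyme that makes a chain-terminating nucleotide. It was at 6.05, 6.22, 5.93 and 6.30 in the knockout arrays, against 5.37, 4.86, 5.43 and 5.96 in the wild type arrays. Wild type replicate 4 lay inside the knockout range, and the other 3 wild type arrays lay below it. The difference was 0.73 (SE 0.2, adjusted p = 0.0237), and it missed the threshold without wild type replicate 1 (0.0547) or knockout replicate 2 (0.0608) or 4 (0.065), and after quantile normalization (0.0639). Leaving out wild type replicate 2 gave 0.54 (adjusted p = 0.0321). Cmpk2, the gene of a mitochondrial nucleotide kinase, was at 5.76, 6.05, 5.80 and 5.64 in the knockout arrays, against 5.96, 5.93, 5.95 and 6.12 in the wild type arrays. These groups overlapped, with 3 knockout arrays below all wild type arrays, and the difference was -0.18 (interval -0.40 to 0.05, adjusted p = 0.202), or -0.20 without wild type replicate 2. After quantile normalization Cmpk2 was called lower (-0.32, adjusted p = 0.0377). The difference between these neighbours was not tested.

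Among the other effectors, Xaf1, Rtp4 and Ifi35 rose. Xaf1 encodes a binding partner of the caspase inhibitor XIAP. It was at 5.83, 5.92, 5.67 and 5.67 in the knockout arrays, against 4.93, 5.27, 5.15 and 5.25 in the wild type arrays. The groups were well apart, and the difference of 0.62 (SE 0.101, adjusted p = 0.00212, 1.54-fold) had the smallest p of all members. Wild type replicate 2 was the highest of its group for Xaf1, and without it the difference was 0.66. Rtp4 encodes a zinc-finger protein that assists the transport of receptors to the cell surface. It was at 6.07, 5.91, 5.56 and 5.56 in the knockout arrays, against 5.05, 4.75, 5.52 and 4.73 in the wild type arrays. The groups did not overlap, though wild type replicate 3 came close to the lower knockout arrays, and the difference was 0.76 (SE 0.189, adjusted p = 0.0154), or 0.68 without wild type replicate 2. Xaf1 and Rtp4 passed the threshold whichever array was left out (adjusted p of at most 0.00818 and 0.0448).

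Ifi35, whose product pairs with that of Nmi, was at 6.98, 6.91, 7.03 and 7.16 in the knockout arrays, against 6.62, 6.81, 6.70 and 6.69 in the wild type arrays. The groups did not overlap, and both were tight. The difference was 0.32 (SE 0.0819, adjusted p = 0.0188, 1.24-fold), and 0.35 without wild type replicate 2. Ifi35 missed the threshold without knockout replicate 3 (0.0517) or 4 (0.0528), after quantile normalization (0.15, adjusted p = 0.236), after centring arrays on their medians (0.0683) and after cyclic loess (0.176). Bst2, the gene of tetherin, which holds budding virus at the cell surface, differed by 0.21 (interval -0.01 to 0.43, adjusted p = 0.14), and by 0.15 without wild type replicate 2. Zbp1, a sensor of Z-form nucleic acid, differed by -0.05 (interval -0.54 to 0.43, adjusted p = 0.869), and by -0.22 without that array.

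None of the 4 signalling members, Irf7, Irf9, Irf1 and Stat2, passed the test, although all differences were above 0. At an unadjusted p under 0.05, 1 of them (Irf7) was higher. Irf7, the factor that amplifies type I interferon production, was at 6.38, 6.10, 5.93 and 5.75 in the knockout arrays, against 5.12, 4.58, 5.67 and 5.86 in the wild type arrays. Wild type replicate 4 lay inside the knockout range, and the wild type spread (SD 0.577, n = 4) was wider than the knockout spread (SD 0.265, n = 4). The difference was 0.73 (SE 0.259, adjusted p = 0.0585). It was 0.49 without wild type replicate 2 (adjusted p = 0.09), and it passed without wild type replicate 3 (0.0476) or 4 (0.0269) and among genes above the median level (0.049). Irf9, the DNA-binding part of the complex on the ISRE, differed by 0.38 (interval -0.02 to 0.79, adjusted p = 0.138). Its partner Stat2 differed by 0.24 (interval -0.13 to 0.62, adjusted p = 0.294). Irf1, a target and mediator of interferon gamma, differed by 0.22 (interval -0.14 to 0.58, adjusted p = 0.32). Irf9, Stat2 and Irf1 differed by 0.20, 0.16 and 0.09 without wild type replicate 2.

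The OAS enzymes make the short adenylate chains that switch on RNase L, and none of the 4 family members passed the test. At an unadjusted p under 0.05, 1 of them (Oas2) was higher. Oas2 was at 6.22, 6.01, 5.92 and 6.13 in the knockout arrays, against 5.25, 4.86, 6.03 and 5.71 in the wild type arrays. Only wild type replicate 3 reached into the knockout range, and the difference was 0.61 (SE 0.218, adjusted p = 0.0619), or 0.41 without wild type replicate 2. Oasl2 had the largest wild type spread of any member, from 5.66 in replicate 2 to 7.18 in replicate 3. Its difference of 0.55 (interval -0.23 to 1.32, adjusted p = 0.253) was 0.21 without replicate 2. Oas1a differed by 0.31 (adjusted p = 0.277) and Oasl1, which lacks the enzyme activity, by 0.03 (interval -0.35 to 0.41, adjusted p = 0.904). Oas1a and Oasl1 differed by 0.25 and -0.07 without wild type replicate 2. The sign of Oasl1 turned also after quantile normalization, centring and cyclic loess.

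The interferon-inducible GTPases act on the membranes around intracellular pathogens. Irgm1 was at 6.68, 6.52, 6.28 and 6.11 in the knockout arrays, against 5.55, 5.34, 6.55 and 5.97 in the wild type arrays, and wild type replicate 3 lay inside the knockout range. The difference was 0.54 (SE 0.242, adjusted p = 0.117), or 0.37 without wild type replicate 2. Gbp3 differed by 0.60 (SE 0.237, adjusted p = 0.0847) and Gbp2 by 0.27 (interval -0.45 to 1.00, adjusted p = 0.535). The values for this pair were 0.35 and -0.0041 without wild type replicate 2. Gbp2 and Gbp3 are neighbours on chromosome 3 and of similar sequence, so their probes may share signal. Parp14, an ADP-ribosyltransferase, was at 6.60, 6.14, 6.05 and 5.99 in the knockout arrays, against 5.86, 5.02, 5.97 and 5.59 in the wild type arrays. Its groups did not overlap, by a margin smaller than the spread of either, and the difference of 0.59 (SE 0.21, adjusted p = 0.0627) did not pass, and it was 0.39 without wild type replicate 2. Without wild type replicate 3, Irgm1 (0.0145), Gbp3 (0.0396), Parp14 (0.0394), Oas2 (0.014) and Irf7 (0.0476) passed in addition to the 7.

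The members that showed the least difference were Isg15, Mx1 and Oasl1. Isg15 encodes a ubiquitin-like modifier and is among the genes most strongly induced by type I interferon. It was at 3.41, 3.34, 3.29 and 3.35 in the knockout arrays, against 3.34, 3.32, 3.42 and 3.39 in the wild type arrays. All 8 values lay close together, and the difference was -0.02 (interval -0.18 to 0.13, adjusted p = 0.817). The array medians over all features lay between 4.94 and 5.05, and the file gives no detection call, so whether this feature reads RNA at all in these samples was not tested. Usp18, which removes Isg15 from its targets and damps the receptor Ifnar2, differed by 0.28 (interval -0.11 to 0.67, adjusted p = 0.247), and by 0.15 without wild type replicate 2. Mx1 and Mx2 encode dynamin-like antiviral GTPases and are known to carry disrupting mutations in most laboratory mouse strains. They differed by -0.02 (interval -0.35 to 0.30, adjusted p = 0.917) and -0.11 (interval -0.43 to 0.21, adjusted p = 0.582). Mx1 averaged 3.22 in knockout and 3.24 in wild type arrays, and Mx2 3.58 and 3.69, also below the array medians. Whether the Mx1 and Mx2 features read RNA was not tested either. Isg15, Mx1 and Mx2 differed by -0.04, -0.04 and -0.14 without wild type replicate 2. The signs of Isg15 and Mx1 turned after quantile normalization and cyclic loess, and that of Mx2 after cyclic loess.

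**Figure D2:**
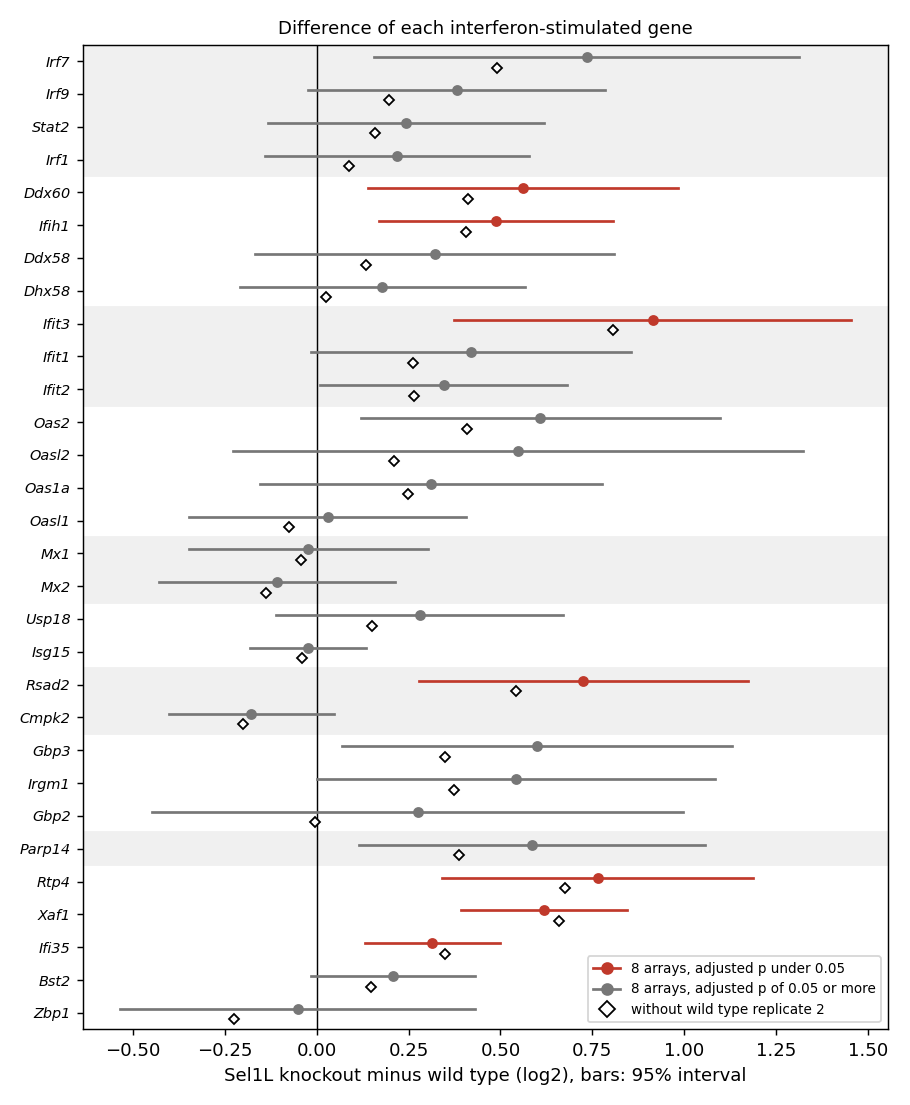
Knockout minus wild type difference (log2, horizontal axis) of each member, with the 95% interval of the limma fit as a bar. Red marks the 7 members with an adjusted p under 0.05, grey the other 23, and open diamonds the difference without wild type replicate 2. The diamond lies left of the full estimate for all members but Xaf1 and Ifi35, and near 0 for Gbp2.

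The members moved together from array to array. In wild type replicate 2, 24 of the 30 members had their lowest wild type value, against 25.1% of all genes. In wild type replicate 3, 19 had their highest wild type value, against 23.3% of all genes. In knockout replicate 1, 22 had their highest knockout value, against 25.3% of all genes. The median deviation of the members from their wild type means was 0.66, 0.40, 0.23 and 0.24 in knockout replicates 1 to 4, against -0.02, -0.39, 0.35 and 0.11 in wild type replicates 1 to 4. The median in wild type replicate 3 thus exceeded those of knockout replicates 3 and 4. The median SD of a member was 0.227 in knockout and 0.357 in wild type arrays, against 0.121 and 0.169 over all genes. The wild type SD was the larger for 23 of 30 members (76.7%) and for 68.4% of all genes.

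Macrophage markers shared some extreme arrays with the members, but not the order of all 8. Their median deviation from the wild type mean was 0.75, -0.07, -0.27 and 0.02 in knockout replicates 1 to 4, against 0.26, -1.36, 0.91 and 0.23 in wild type replicates 1 to 4. The highest array of each group was the same for both gene sets, and so was the lowest wild type array. Of the 21 markers, 18 were lowest in wild type replicate 2 among wild type arrays, and 20 were highest in knockout replicate 1 among knockout arrays. In a bulk sample, fewer cells of a type and less RNA per cell cannot be told apart. Between the groups the list means ranged from 6.56 to 7.43 in knockout and from 5.42 to 7.61 in wild type arrays, and 1 marker was called higher (Ms4a7, 1.14, adjusted p = 0.0121) and 0 lower, also at an unadjusted p under 0.05. Without wild type replicate 2, 3 markers were called lower and 1 higher. Wild type replicate 3 had the highest macrophage list mean of all 8 arrays (7.61), and its median deviation of the members, 0.35, lay below those of knockout replicates 1 and 2 and above those of knockout replicates 3 and 4. Stellate cell and fibroblast markers were also highest in knockout replicate 1 and wild type replicate 3 and lowest in wild type replicate 2. Their list means were 8.04, 7.31, 7.31 and 7.42 in knockout replicates 1 to 4, against 7.65, 6.55, 8.08 and 7.84 in wild type replicates 1 to 4. Of these 12 markers 0 were called in either direction (1 was lower at an unadjusted p under 0.05), and 2 were called lower without wild type replicate 2. The 8 islet markers ran the other way, with list means lowest in knockout replicate 1 (7.65) and wild type replicate 3 (7.41). Among wild type arrays their mean was highest in replicate 2 (8.82), and 1 islet marker was called higher and 0 lower. The 6 duct markers averaged 7.44 to 7.52 in knockout and 7.55 to 7.86 in wild type arrays, with 1 called higher and 1 lower. Over all genes 16.1% were called higher and 12.6% lower. The part of any of these cell types in the differences of the members was not tested.

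**Figure D3:**
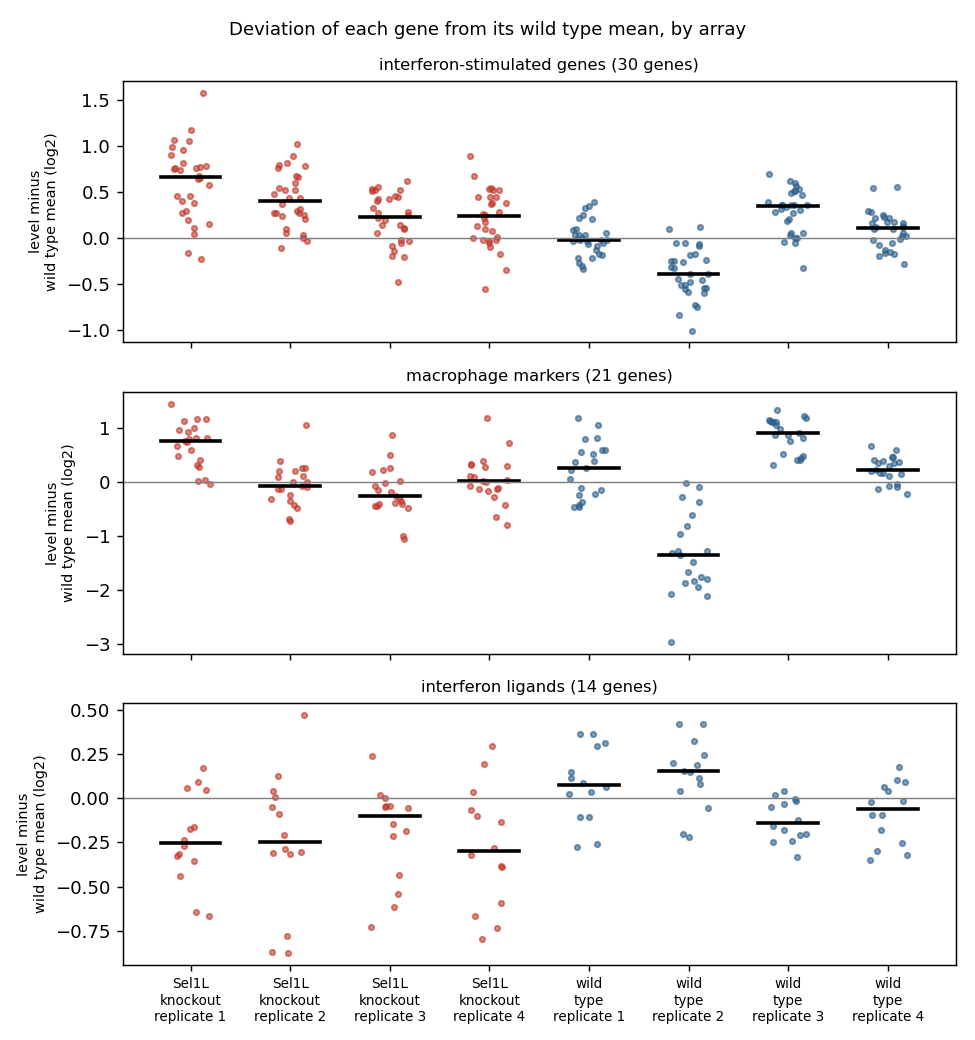
Level of each gene minus its wild type mean (log2, vertical axes) on each of the 8 arrays, for the 30 members, 21 macrophage markers and 14 interferon ligands. Knockout arrays are red and stand left of the wild type arrays in blue, each point is a gene, and black bars are medians. Members and macrophage markers are both lowest in wild type replicate 2 (medians -0.39 and -1.36), while the ligands are not.

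No rise was called among markers of other immune cells. Of 12 dendritic cell, 13 T and NK cell, 9 B and plasma cell and 9 neutrophil markers, 0 were called higher, also at an unadjusted p under 0.05, and 1, 3, 0 and 1 were called lower. The list means were 4.22 to 4.52 in knockout and 4.39 to 4.73 in wild type arrays for dendritic cells. For T and NK cells they were 3.47 to 3.63 in knockout and 3.62 to 3.84 in wild type arrays. Those for B and plasma cells were 3.49 to 4.24 in knockout and 3.55 to 4.11 in wild type arrays, and those for neutrophils 3.40 to 3.72 in knockout and 3.67 to 4.34 in wild type arrays. All these list means lay below the array medians over all features (4.94 to 5.05). With no detection call, whether the dim markers read RNA was not tested. Of 12 endothelial markers 6 rose (50%) and 0 fell, where 16.1% of all genes rose and 12.6% fell. Their list means were 7.42 to 7.64 in knockout and 7.18 to 7.33 in wild type arrays, above the array medians. Among the 9410 genes above the median level, 32% rose and 12.4% fell. Within the knockout group their mean was highest in replicate 3 (7.64), while that of the 30 members was highest in replicate 1 (5.97). The count of rises was 4 without wild type replicate 2 (14.6% of all genes rose). It was 2 after quantile normalization (9.64%) or cyclic loess (10.6%) and 3 without knockout replicate 3 (11.7%) or 4 (12.8%). The part of endothelium in the differences of the members was not tested.

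The genes of the interferons themselves did not rise. Of 14 ligand genes measured, 0 were higher and 5 lower at an unadjusted p under 0.05, where 3913 of 18820 genes were lower. After adjustment 0 were higher and 4 lower (28.6%, where 12.6% of all genes fell), with a list median of -0.23. The median was -0.04 over all genes and 0.13 over genes above the median level. The falls of these dim features were not compared with those of other genes of like level. The count of falls was 3 when wild type replicate 2 was left out (10.8% of all genes then fell). Ifnb1, the gene of interferon beta, was at 2.84, 2.95, 2.81 and 2.93 in the knockout arrays, against 2.89, 3.15, 2.96 and 2.98 in the wild type arrays. Its groups overlapped (difference -0.12, adjusted p = 0.306). Ifnl2, a type III interferon, was at 4.76, 4.62, 4.67 and 4.74 in the knockout arrays, against 5.71, 5.55, 5.20 and 5.15 in the wild type arrays. The groups did not overlap, and it fell by 0.70 (SE 0.128, adjusted p = 0.00366). The type I genes Ifna9 and Ifna16 fell by 0.70 (adjusted p = 0.0165) and 0.66 (adjusted p = 0.015). Ifna6 fell by 0.39 (adjusted p = 0.0403), and that call was lost without wild type replicate 1 or 2 or knockout replicate 2, 3 or 4 (adjusted p of 0.0645 to 0.103). The list means were 3.34 to 3.42 in knockout and 3.50 to 3.75 in wild type arrays. The interferon alpha genes are near-identical copies whose probes may share signal, and with no detection call, whether these features read RNA of the genes named was not tested.

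Of the 6 receptor chains 1 rose (16.7%, where 16.1% of all genes and 32% of genes above the median level rose). Ifnar1 was at 7.71, 7.55, 7.71 and 7.61 in the knockout arrays, against 7.13, 6.83, 7.23 and 7.23 in the wild type arrays. The groups were apart, and the difference was 0.54 (SE 0.104, adjusted p = 0.00495), or 0.45 without wild type replicate 2. Its partner Ifnar2 differed by -0.30 (interval -0.59 to -0.02, adjusted p = 0.0994), and it was called lower without knockout replicate 1 (-0.42, adjusted p = 0.023), after quantile normalization (-0.42, adjusted p = 0.0465), centring (0.0414) and cyclic loess (0.0367). The gamma receptor genes Ifngr1 and Ifngr2 differed by 0.30 (adjusted p = 0.172) and -0.24 (adjusted p = 0.148). The type III chains Ifnlr1 and Il10rb differed by -0.0065 (interval -0.25 to 0.23, adjusted p = 0.968) and -0.14 (interval -0.34 to 0.06, adjusted p = 0.267).

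In the JAK-STAT list 2 of 16 genes rose (12.5%) and 4 fell (25%), and the median was -0.02. Of all genes 16.1% rose and 12.6% fell, and of genes above the median level 32% rose and 12.4% fell. Ptpn2, a phosphatase that removes the activating mark from JAK and STAT proteins, was at 7.05, 7.18, 7.05 and 7.13 in the knockout arrays, against 6.38, 6.38, 6.44 and 6.39 in the wild type arrays. The groups were far apart for their spread, with a difference of 0.71 (SE 0.0701, adjusted p = 0.000159). Stat4, a factor activated by interleukin 12 and type I interferon, rose by 0.86 (SE 0.198, adjusted p = 0.0114). Socs1, an inhibitor of JAK kinases that interferon itself induces, was at 4.81, 4.73, 4.65 and 4.82 in the knockout arrays, against 5.41, 5.52, 5.09 and 5.22 in the wild type arrays. It fell by 0.56 (SE 0.104, adjusted p = 0.00418), with no overlap of groups. Cish, an inhibitor of Stat5 signalling, fell by 0.61 (SE 0.161, adjusted p = 0.0196), a call lost without knockout replicate 3 (0.0593). The count of falls was 5 without wild type replicate 2 (10.8% of all genes fell), 1 without knockout replicate 3 (8.06%) and 2 without knockout replicate 4 (8.99%).

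Of 27 nucleic acid sensors and adaptors outside the list of members, 5 rose (18.5%) and 2 fell (7.41%), with a median of 0.18, where 16.1% of all genes rose and 12.6% fell. Among genes above the median level 32% rose and 12.4% fell. The counts of sensors and adaptors were the same without wild type replicate 2. Rnf135 and Trim25, ubiquitin ligases that activate RIG-I, rose by 0.54 (SE 0.117, adjusted p = 0.00856) and 0.42 (SE 0.112, adjusted p = 0.0214). Tlr3, the endosomal receptor for double-stranded RNA, was at 5.12, 5.14, 5.19 and 4.86 in the knockout arrays, against 4.38, 4.21, 4.88 and 4.67 in the wild type arrays. Wild type replicate 3 reached just above knockout replicate 4, and the difference was 0.54 (SE 0.146, adjusted p = 0.0215). Rnaseh2c, a subunit of the nuclease that removes ribonucleotides from DNA, fell by 0.48 (SE 0.122, adjusted p = 0.0171). The count of rises was 2 without wild type replicate 1 or knockout replicate 2 or 3, 3 without knockout replicate 4, 3 after centring and 2 after quantile normalization or cyclic loess. The call of Trim25 was lost after quantile normalization (0.101) and cyclic loess (0.112) and without knockout replicate 2 (0.0568). Tlr3 lost its call without wild type replicate 1 (0.056) or knockout replicate 2 (0.0564) or 3 (0.0617).

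A further list of 70 interferon-stimulated genes that are not members had 13 rises (18.6%) and 4 falls (5.71%), with a median of 0.22. The share of rises is near the 16.1% of all genes and below the 32% of genes above the median level. The list means were 6.35 to 6.63 in knockout and 5.85 to 6.51 in wild type arrays. Znfx1, a helicase-like sensor of RNA, was at 9.12, 9.63, 8.94 and 9.72 in the knockout arrays, against 8.19, 7.73, 8.03 and 7.67 in the wild type arrays. The groups were far apart, and the difference of 1.45 (SE 0.19, adjusted p = 0.000684, 2.73-fold) exceeded that of every member. Nmi, the partner of Ifi35, rose by 0.67 (SE 0.1, adjusted p = 0.00134), also with no overlap. Ifi30, the gene of a lysosomal thiol reductase of antigen processing, was at 8.94, 8.73, 8.35 and 8.82 in the knockout arrays, against 9.91, 10.22, 10.02 and 10.13 in the wild type arrays. It fell by 1.36 (SE 0.13, adjusted p = 0.000133, 2.57-fold), with no overlap of groups. Ifi27 fell by 0.70 (SE 0.11, adjusted p = 0.00179). Tap1, the peptide transporter of class I antigen presentation, rose by 0.69 (SE 0.159, adjusted p = 0.011) and was named after its values were seen. Without wild type replicate 2 the list had 9 rises and 7 falls (14.6% of all genes rose and 10.8% fell). The rises numbered 8 without knockout replicate 1 (13.7% of all genes) or 3 (11.7%) and after quantile normalization (9.64%).

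**Figure D4:**
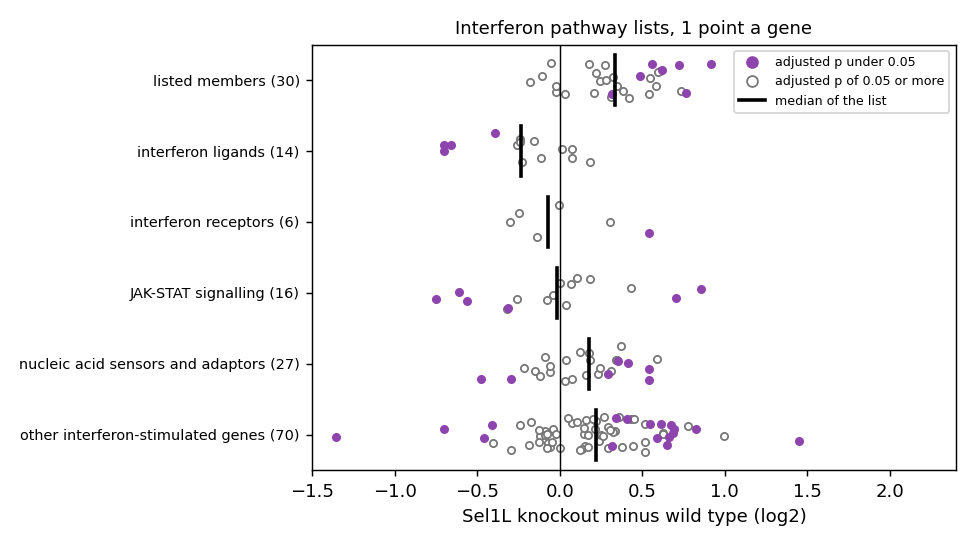
Knockout minus wild type difference (log2, horizontal axis) of every measured gene of the members and of 5 interferon pathway lists, with the number of genes in brackets. Filled points passed an adjusted p under 0.05, open points did not, and black bars are list medians. The medians are 0.33 for the members, -0.23 for ligands, -0.07 for receptors, -0.02 for JAK-STAT signalling, 0.18 for sensors and adaptors and 0.22 for the other interferon-stimulated genes.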

How the data were processed

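The deposited values were made by the authors with RMA, a multi-array summary of probe signals, as named in the submitters' processing notes. The authors' deposited values lie in the range of log2 RMA output, and the base, which no header states, is taken from that. RMA's version, the chip definition and the genome build were not given in the sources used here. Of 35556 features, 21218 had 1 gene symbol in GEO's platform annotation, 1881 several and 12457 none. Only the first kind was used, 1 feature a gene, which gave 18820 genes, with no filter on dim genes.

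Genotype was fitted with limma 3.58.1 (lmFit, eBayes, 6 residual degrees of freedom, R 4.3.3), and Benjamini-Hochberg adjustment ran over all genes. Differences are log2 knockout minus wild type, errors are moderated standard errors and intervals are unadjusted 95% intervals. Members were called at an adjusted p under 0.05. The fit was checked on simulated data with 4 and 4 arrays, in which 200 of 18820 genes were changed. It recovered 37% of changes of 0.5 and 79% of changes of 1 (log2), and 8 of 124 calls were false. A member that did not pass the test is thus not shown to be unchanged. The number of arrays limits the precision.

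The members and gene lists were chosen with earlier results of these data known. Text names all members, Sel1l, all receptor chains, up to 4 called genes of each pathway list by smallest p, and Ifnb1, Tap1 and Ms4a7, which were added after their values were seen. Replicate numbers were checked for pairing and did not pair the samples. Alternatives were other normalizations, a filter, other feature rules, other variance models, array weights, a replicate block and leaving out each array. Promoters came from RefSeq (GRCm38.p6), and figures were drawn with matplotlib 3.10.9.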

Additional observations from a re-analysis of the deposited data

Results flagged for a closer look

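Of 106 groups of 4 arrays examined for the genes named, 5 held an array far from the other 3, where chance gives about 1 in 20. Ddx58 in knockout replicate 1 was at 7.22, against 6.75 to 6.83 in the other knockout arrays, and Dhx58 in the same array at 5.10, against 4.79 to 4.80. Ifnar2 in that array was at 8.49, against 8.01 to 8.05. Sel1l in knockout replicate 4 was at 11.45, against 11.66 to 11.70 in the other knockout arrays. Cish in wild type replicate 1 was at 8.39, against 7.70 to 7.81 in wild type replicates 2 to 4.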

How the results depend on the processing

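The count of members called higher was 7 as deposited, 3 after quantile normalization (where 1, Cmpk2, was called lower) and 3 to 12 when single arrays were left out, with 4 without knockout replicate 3 or 4, 3 without knockout replicate 2 and 12 without wild type replicate 3. Genes called over the whole table numbered 5406 as deposited and 3721 to 6226 under the alternatives, and the Sel1l call held in each. The share of those calls that were higher was 56.0% as deposited, 42.9% after quantile normalization, 36.3% after centring and 48.1% after cyclic loess. The members' median stayed above 0 under each alternative, at 0.23 to 0.49. With the replicate number as a block 8 members were called, the 7 and Parp14 (adjusted p = 0.045), and Trim25 lost its call (0.0549), out of 4678 genes called. Same-numbered samples did not deviate together throughout (correlations across genes of 0.22, 0.15, -0.27 and -0.02), so the numbers were not taken as pairs.

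Signs turned for members near 0, and none of these values passed the test: Isg15 after quantile normalization (0.083) and cyclic loess (0.11), Mx1 after the same (0.083 and 0.11), Mx2 after cyclic loess (0.013), and Oasl1 after quantile normalization (-0.098), centring (-0.046) and cyclic loess (-0.053). The receptor gene Ifnlr1 turned after cyclic loess (0.012). With single arrays left out the ranges were -0.13 to 0.046 for Mx1, -0.18 to 0.040 for Mx2, -0.074 to 0.19 for Oasl1, -0.22 to 0.089 for Zbp1, -0.0041 to 0.48 for Gbp2 and -0.078 to 0.068 for Ifnlr1. Signal over background is not given in the file, so detection of dim members could not be judged; the cause of the other changes was not tested.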
